A study of Homo sapiens with 4 samples.

Results

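The hypoxia genes HIF1A, EPAS1, ARNT, ADM, NDRG1, BNIP3, BNIP3L, ANKRD37, EGLN1 and EGLN3 were followed at the RNA level. They were measured in MDA-MB-231, a cell line from a breast carcinoma, and in its subline MDA-MB-231-LM2 (LM2), which is described as highly metastatic. The 10 genes were taken by name, and every transcript paired with one of these symbols was counted to its gene. This gave 17 of the 65423 transcripts in the deposited table and 10 of the 34616 genes paired with a symbol. For each gene, the transcript with the highest mean count stands for the gene. Total RNA of untreated cultures was sequenced, with no genetic change or agent named for either line. The lines were grown differently: parental cells had Leibovitz L-15 medium and 100% air, and the subline had DMEM with 95% air and 5% CO2, with 10% serum in each case. Effects of the cell line, the medium and the gas phase cannot be told apart. The labels list 2 samples of each line, but the table holds 1 column per line, so no spread between cultures was available and no p-value is given. The column of MDA-MB-231 sums to 130689252 counts and that of LM2 to 128985870.

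Cells sense oxygen through the stability of hypoxia-inducible factor (HIF). The alpha subunits, HIF-1α (HIF1A) and HIF-2α (EPAS1), are hydroxylated on prolines by the EGLN enzymes when oxygen is present, bound by the VHL ubiquitin ligase and degraded. When oxygen falls they persist, pair with ARNT and bind a short DNA core in target genes such as ADM, NDRG1, BNIP3, BNIP3L, ANKRD37, EGLN1 and EGLN3. The alpha subunits are therefore controlled largely at the protein level, which RNA counts do not show.

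LM2 cells had over 2-fold more RNA of NDRG1 and ADM than MDA-MB-231 cells, and HIF1A RNA was 1.49-fold higher. The other 7 genes lay within 0.3 of 0 on the log2 scale. NDRG1, a cytoplasmic protein induced by hypoxia and other stresses, was 2.31-fold higher (95% interval 2.25 to 2.38), and ADM, the peptide hormone adrenomedullin, was 2.06-fold higher (1.97 to 2.15). Every ratio sets LM2 over MDA-MB-231, with counts first divided by their column totals. Its exact Clopper-Pearson interval covers counting error only and says nothing of how cultures vary. Over 2-fold higher were 2 of the 10 genes, against 4.60% of 15469 named genes that averaged 50 counts or more, and over 2-fold lower were 0 of 10, against 6.86%. All 10 genes passed that minimum. Their median log2 ratio was 0.23, beside 0.00 (-0.0042) for all named genes. The interval lay wholly above 1 for 7 of the 10 genes, against 37.0% of all named genes, and wholly below 1 for 0, against 38.3%. Such counts depend on read depth and scaling. Among the 7, EGLN1 and BNIP3L had lower limits of 1.005 and 1.006. Their log2 ratios were -0.0048 and -0.0035 when the 12 transcripts with most counts were left out of the column totals. Of the 10 genes, 3 (NDRG1, ADM and HIF1A) were above the upper quartile of all named genes (0.29) and 7 lay inside the quartiles.

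**Figure D1:**
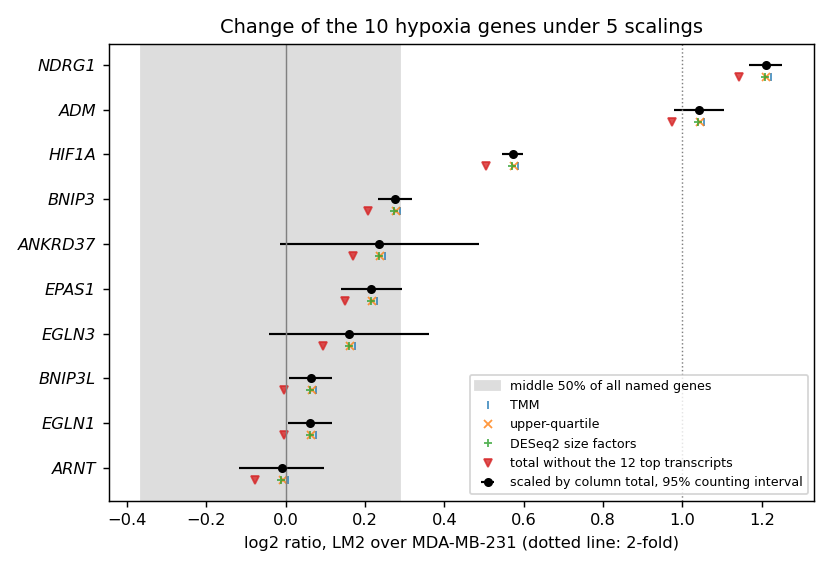
The 10 genes (y axis) by their log2 ratio of LM2 over MDA-MB-231 (x axis), 1 value per cell line, with 95% counting intervals as bars and the ratios under 4 other scalings below each. NDRG1 at 1.21 and ADM at 1.04 stand at or beyond the dotted 2-fold line, HIF1A at 0.57 lies between, and the other 7 fall in the grey band, the middle 50% of all named genes.

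The DNA core bound by HIF is ACGTG or GCGTG. It was searched on both strands from 250 bases before to 50 after the RefSeq transcription start (GRCh38.p14), which was at hand for 8 of the 10 genes (HIF1A, EPAS1, ARNT, ADM, BNIP3, ANKRD37, EGLN1 and EGLN3). At least 1 core stood in 6 of these 8 promoters. Among the promoters of 11009 named genes at the minimum mean, 62.6% held at least 1, so the presence of a core is common. BNIP3 held 6 matches and ANKRD37 held 3, and 15.4% of those promoters held 3 or more. The palindrome CACGTG, present in both, counts as 2 matches, 1 on each strand. The windows around the cores are shown so that the letters matched can be compared between the genes. Each is written 5′ to 3′ on the strand of its gene, with the cores in capitals (CACGC is GCGTG read on the other strand).

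HIF1A, chr14:61695296-61695325, plus strand: ttggctgagagcgGCGTGggctggggtggg

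EPAS1, chr2:46297277-46297306, plus strand: ggggcctgccggcGCGTGcccgcccacaca

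EGLN1, chr1:231422288-231422317, minus strand: ccgcggggccgtggtgtACGTGcagagcgc

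BNIP3, chr10:131982015-131982074, minus strand: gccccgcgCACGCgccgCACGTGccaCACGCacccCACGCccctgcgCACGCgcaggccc

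ADM, chr11:10304959-10304988, plus strand: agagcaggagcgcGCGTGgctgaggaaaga

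ANKRD37, chr4:185396676-185396705, plus strand: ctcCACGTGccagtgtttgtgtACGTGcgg

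The densest run of cores is that of BNIP3, whose ratio was 1.21-fold, and ADM, at 2.06-fold, held 1 core. Whether cores go with the ratios was not tested, and NDRG1, the gene with the largest ratio, had no start at hand. A match is a description of letters and not a bound site. Only 1 RefSeq start per gene was used, and the windows of ADM, ANKRD37 and EGLN1 overlap an annotated exon in GENCODE release 29. Whether that exon belongs to the counted transcript was not examined. EGLN1, on the minus strand, reaches base 231425044 in GENCODE, beyond its window. It has 7265 exonic bases there, and the counted model NM_022051 has 7097. The core shown for EGLN1 may therefore lie inside the counted transcript and not before it. ARNT and EGLN3 held no core in these windows, which says nothing of elements elsewhere in the genes.

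**Figure D2:**
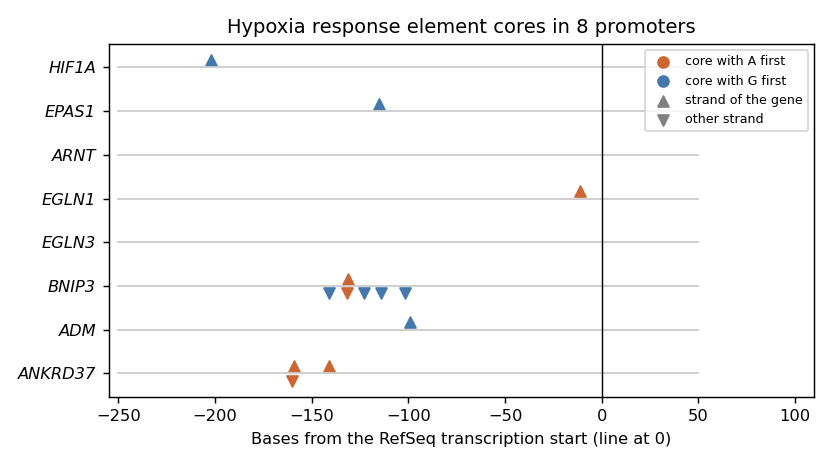
Position of each core match, in bases from the RefSeq transcription start (x axis), in 8 promoters (y axis); colour gives the first base of the core and the direction of the triangle its strand. The 6 matches of BNIP3 lie between -143 and -100 and the 3 of ANKRD37 between -162 and -139, whereas ARNT and EGLN3 show none.

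Among the HIF subunits, HIF1A was by far the more abundant alpha subunit in both lines. HIF1A (NM_001530), which spans 61695513 to 61748259 of chromosome 14 (plus strand) in GENCODE release 29 on GRCh38, was counted 19418 times in MDA-MB-231 and 28497 times in LM2. Its RPKM (reads per kilobase of transcript, set against the sum of its column) was 36.6 and 54.4, a ratio of 1.49-fold (1.46 to 1.51). EPAS1, the alpha subunit known for roles in vessels and in erythropoietin control, had 2524 and 2893 counts, RPKM 3.74 and 4.34, and was 1.16-fold higher (1.10 to 1.23). HIF1A thus made up 90.7% of the summed RPKM of both alpha subunits in the parental line and 92.6% in LM2. The RPKM of HIF1A was 9.79 and 12.5 times that of EPAS1. ARNT, the shared beta subunit, had 1439 and 1411 counts, RPKM 2.25 and 2.24, and its interval held 1 (0.922 to 1.07). In both lines the RNA of HIF1A exceeded that of ARNT, by 16.2 times in MDA-MB-231 and 24.3 times in LM2.

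ARNT2, a paralog of ARNT that can also pair with HIF alpha subunits, had 1950 and 386 counts and was 4.99-fold lower in LM2 (4.47 to 5.58). The RPKM of ARNT was 0.990 times that of ARNT2 in MDA-MB-231 and 4.91 times in LM2. HIF3A, the third alpha subunit, was at 2 and 0 counts, at or under the floor of 3 counts used here, so no fold is given. A ratio in bulk RNA does not separate fewer cells that express a gene from less RNA per cell.

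**Figure D3:**
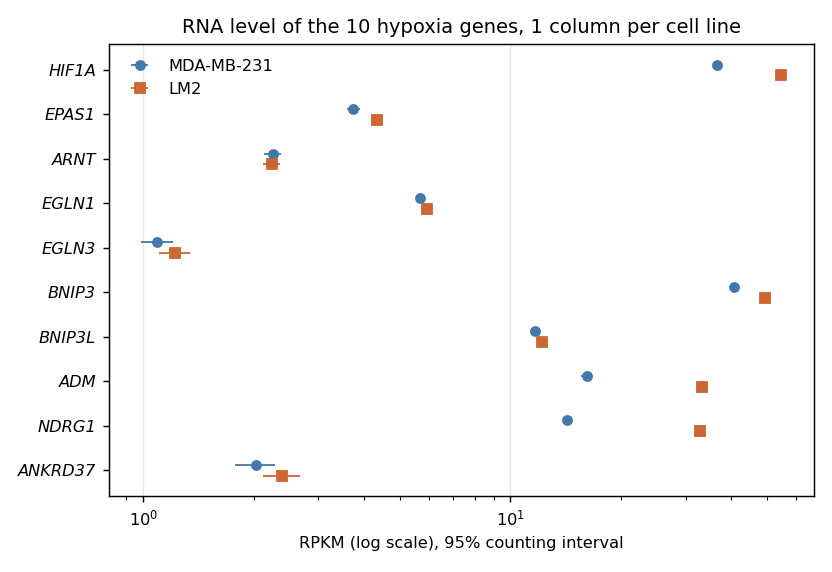
RPKM on a log scale (x axis) of the 10 genes (y axis) in MDA-MB-231 (blue circles) and LM2 (orange squares), 1 column per line, with exact 95% counting intervals as bars. BNIP3 and HIF1A lead in both lines at 36.6 to 54.4, and EGLN3 is lowest at 1.09 and 1.22.

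The 3 transcript models of HIF1A hold largely the same reads. NM_181054, shorter than NM_001530 by 127 bases, had 18861 and 27653 counts, 97.1% and 97.0% of those of NM_001530. NM_001243084 had 17154 and 25136 counts, 88.3% and 88.2%. The share of each model was thus nearly equal in both lines, and the 3 log2 ratios all round to 0.57. The 3 models of ARNT ranged from -0.0096 to -0.0086 and the 4 models of NDRG1 from 1.21 to 1.22. The other 7 genes are listed with 1 transcript each.

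Other annotated genes overlap the span of HIF1A, and whether the deposited counts separate strands was not given in the sources used here. HIF1A-AS1 (ENST00000557544.1), on the minus strand, had 796 and 1200 counts and a log2 ratio of 0.61 (0.48 to 0.74), close to the 0.57 of HIF1A. It shares 117 exonic bases with HIF1A, or 2.99% of the 3919 bases of the GENCODE transcript paired with NM_001530. AL137129.1, on the strand of HIF1A, shares 148 bases (3.78%) and had 1829 and 2691 counts, a log2 ratio of 0.58 (0.49 to 0.66). HIF1A-AS2, at the other end, is listed as NR_045406 with 3725 and 5183 counts (log2 ratio 0.50, 0.43 to 0.56) and as ENST00000554254.1 with 466 and 323 counts (-0.51, -0.72 to -0.30). The models of HIF1A-AS2 therefore went in opposite directions. In GENCODE release 29, 0 exonic bases of HIF1A-AS2 are shared with HIF1A. The exons of NR_045406 were not analysed here, so how many of its reads belong to HIF1A cannot be told apart.

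The oxygen-sensing enzymes were near even between the lines. EGLN1 (PHD2), the main prolyl hydroxylase of HIF-1α in normal oxygen, had 5261 and 5420 counts, RPKM 5.67 and 5.92, a ratio of 1.04-fold (1.005 to 1.084). EGLN3 (PHD3), a strongly hypoxia-inducible member of the family, had 388 and 428 counts, RPKM 1.09 and 1.22, and its interval held 1 (0.972 to 1.29). The most abundant EGLN enzyme was EGLN2 (PHD1) at RPKM 18.9 and 17.5, 1.08-fold lower in LM2 (1.04 to 1.13). It took 73.7% of the summed RPKM of the 3 enzymes in MDA-MB-231 and 71.0% in LM2, EGLN1 took 22.1% and 24.1%, and EGLN3 took 4.24% and 4.95%. EGLN2 is part of the read-through gene RAB4B-EGLN2, which had 5393 and 4765 counts, so the reads of these genes overlap. EGLN3-AS1, antisense to EGLN3, had 0 counts in both columns.

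Outside the EGLN enzymes, HIF1AN, the asparagine hydroxylase that limits HIF transactivation, had 2252 and 2221 counts and a log2 ratio of 0.00 (-0.0011). The transmembrane prolyl hydroxylase P4HTM was at 0.12. Of the 5 sensors with the EGLN enzymes included, 0 were over 2-fold higher or lower. Of the 5 subunits of the VHL ligase, also 0 passed 2-fold. VHL itself, which recognises hydroxylated HIF, had 4773 and 6308 counts and was 1.34-fold higher (1.29 to 1.39), and the scaffold CUL2 was 1.28-fold higher (1.21 to 1.35), whereas the adaptor ELOB was 1.38-fold lower (1.32 to 1.43). Among 17 cofactors and regulators, 0 were over 2-fold higher and 2 lower, against 4.60% and 6.86% of all named genes. These were CITED4, an inhibitor of HIF binding to p300, at 94 and 40 counts (2.32-fold, 1.59 to 3.45) and the coactivator NCOA1 at 1409 and 683 (2.04-fold, 1.86 to 2.23). The coactivator genes EP300 and CREBBP were at log2 ratios of 0.04 and 0.11.

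BNIP3 and BNIP3L (NIX) are outer mitochondrial membrane proteins that recruit autophagosomes to mitochondria, and both are classic hypoxia targets. BNIP3, a minus-strand gene at 131966455 to 131982013 of chromosome 10, had 8175 and 9765 counts. Its RPKM was 40.8 and 49.4, the highest of the 10 genes in parental cells and second to HIF1A in LM2, and its ratio was 1.21-fold (1.18 to 1.25). BNIP3L had 5326 and 5492 counts, RPKM 11.6 and 12.2, and a ratio of 1.04-fold (1.01 to 1.09). The RPKM of BNIP3 was 3.50 times that of BNIP3L in MDA-MB-231 and 4.06 times in LM2. The 2 ratios therefore differed by 0.21 on the log2 scale, with counting intervals that do not overlap.

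Among the other 12 measured genes of mitophagy, 0 lay above and 1 below the 2-fold limits, where 4.60% and 6.86% of all named genes lay. That gene was MAP1LC3A, a member of the LC3 family of autophagosome proteins, with 330 and 80 counts (4.07-fold lower, 3.18 to 5.27). Its relatives lay on the other side, with MAP1LC3B at 1.47-fold higher (1.34 to 1.60) and GABARAPL1 at 1.55-fold higher (1.43 to 1.66). The receptor FUNDC1, which also acts in hypoxia, was 1.37-fold higher (1.24 to 1.51), and the kinase PINK1 was 1.09-fold lower (1.06 to 1.12).

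ADM had 3065 and 6225 counts, RPKM 16.2 and 33.3. It is a gene of chromosome 11, on the plus strand from 10304680 to 10307397, with 0 overlapping genes in GENCODE release 29. The lower limit of its interval (1.97) lies just under 2-fold, and the log2 ratio was 0.97 when the 12 transcripts with most counts were left out of the column totals. ADM2 and ADM5, further genes named for adrenomedullin, were also over 2-fold higher, with 60 and 272 counts (4.59-fold, 3.46 to 6.18) and 88 and 222 counts (2.56-fold, 1.99 to 3.31). The receptor side was uneven. CALCRL, the receptor that binds adrenomedullin together with a RAMP protein, had 5 and 56 counts, a mean under the minimum. RAMP1, which turns CALCRL into a receptor for the peptide CGRP, had 877 and 297 counts (2.91-fold lower, 2.55 to 3.34), while RAMP2 and RAMP3, its partners for adrenomedullin, had 1 and 1 and 0 and 0 counts. ACKR3, a chemokine receptor that also takes up adrenomedullin, had 184 and 1 counts, a ratio of 182-fold lower with an interval of 32.2 to 7211. PAM, the enzyme that amidates the peptide, was 1.31-fold lower (1.26 to 1.35).

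NDRG1 had 6475 and 14780 counts, RPKM 14.2 and 32.9, the largest ratio of the 10 genes. Its gene is at 133237171 to 133302022 of chromosome 8, on the minus strand. It was the only one of the 10 whose interval lay wholly above 2-fold. Its 4 models agree within 0.0073 on the log2 scale, but they share most of their reads. Of its family, NDRG3 had 2648 and 2076 counts (1.26-fold lower, 1.19 to 1.33), NDRG4 had 198 and 229 with an interval that held 1 (0.965 to 1.42), and NDRG2 had 18 and 1, under the minimum. SGK1, a kinase that phosphorylates NDRG1, was 2.45-fold lower (2.23 to 2.70), at 1448 and 583 counts. In MDA-MB-231 the RPKM of ADM lay above that of NDRG1 (intervals 15.6 to 16.8 and 13.9 to 14.6), and in LM2 the intervals overlapped (32.5 to 34.1 and 32.4 to 33.5). This order rests on the model chosen, since the other 3 models of NDRG1 had an RPKM of 15.7 to 16.1 in MDA-MB-231 and of 36.6 to 37.4 in LM2, the latter above ADM at 33.3.

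ANKRD37, an ankyrin-repeat protein and HIF target with a small transcript, had 247 and 287 counts, RPKM 2.02 and 2.38. Its ratio of 1.18-fold had an interval that held 1 (0.990 to 1.40), so a difference was not detectable at this depth. Exons of UFSP2 on the other strand cover 429 of the 1141 bases (37.6%) of the GENCODE transcript paired with NM_181726. UFSP2 had 988 and 1232 counts, with a log2 ratio of 0.34 (0.22 to 0.46), and unless strands were separated in counting, reads in the overlap cannot be assigned to either gene. In the order of levels, with the models of highest mean count, ANKRD37 and ARNT overlapped in their counting intervals in both lines, whereas every other pair of neighbours was apart in MDA-MB-231. In LM2 ADM and NDRG1 overlapped as well.

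Genes known as hypoxia targets did not move as a block. Of 86 measured targets other than the 10 genes, 13 (15.1%) exceeded 2-fold on the higher side and 11 (12.8%) on the lower side in LM2, against 4.60% and 6.86% of all named genes. The median log2 ratio of the 86 was 0.12. All lists used here were chosen with earlier results of these data known, so these shares are no independent result. Of 24 genes of glucose use, 2 were higher and 3 lower. ALDOC, an aldolase, was 3.27-fold higher (2.92 to 3.68) and the regulator PFKFB4 2.21-fold higher (2.07 to 2.36), while the glucose transporter SLC2A1, hexokinase HK2 (5396 and 2540 counts, 2.10-fold) and the pyruvate dehydrogenase kinase PDK3 at 2.06-fold (1.91 to 2.23) were lower. Of 7 genes of pH and ions, 3 were higher and 0 lower. These were the hormones STC1 (2.47-fold, 2.37 to 2.57) and STC2 (2.06-fold, 1.49 to 2.88) and the carbonic anhydrase CA12 (2.41-fold, 2.27 to 2.56). CA9, a carbonic anhydrase and a widely used marker of hypoxia, had 135 and 266 counts and stood just under the threshold, at a log2 ratio of 0.997 (interval of the fold 1.62 to 2.47).

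Of 8 target genes of the matrix, 0 were higher and 3 lower, against 4.60% and 6.86% of all named genes. Among the 3 were the lysyl oxidases LOXL4 (12.9-fold, 11.7 to 14.4) and LOX (2.25-fold, 2.03 to 2.49). Of 13 secreted signals and receptors, 2 were higher and 5 lower, beside the same 4.60% and 6.86%. ANGPTL4, a regulator of lipoprotein lipase, had 193 and 1253 counts (6.58-fold higher, 5.65 to 7.69) and the lipoprotein receptor VLDLR was 2.04-fold higher (1.82 to 2.29). The ephrin EFNA1 (2.86-fold, 2.23 to 3.70), the VEGF receptor FLT1 (94 and 10 counts, 9.28-fold, 4.83 to 20.0) and CXCR4 were the lowest. VEGFA, the vascular growth factor, was 1.86-fold higher (1.81 to 1.91).

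Of 13 targets in transcription and chromatin, 2 were higher and 0 lower, against 4.60% and 6.86% of all named genes. The 2 were the nuclear receptor RORA (4.85-fold, 4.12 to 5.73) and the repressor BHLHE41 (4.12-fold, 3.51 to 4.86), while its paralog BHLHE40 was 1.75-fold lower (1.65 to 1.85). Of 21 targets of cell stress and lipids, 4 were higher and 0 lower, beside the same 4.60% and 6.86%. In lists this small, a count of 0 is close to the 6.86% share. The higher genes were led by RIMKLA (51 and 211 counts, 4.19-fold, 3.07 to 5.81), PLIN2, a coat protein of lipid droplets (2.88-fold, 2.75 to 3.01), and SESN2, an inhibitor of mTORC1 (2.64-fold, 2.43 to 2.87). DDIT4, a further inhibitor of mTORC1 and a hypoxia target, was 2.23-fold higher (2.17 to 2.29), at 6995 and 15389 counts. EP300, CREBBP, FUNDC1, CA9, DDIT4 and the list genes given with a mean under 50 counts (HIF3A, CALCRL, RAMP2, RAMP3 and NDRG2) were named after their values were seen.

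**Figure D4:**
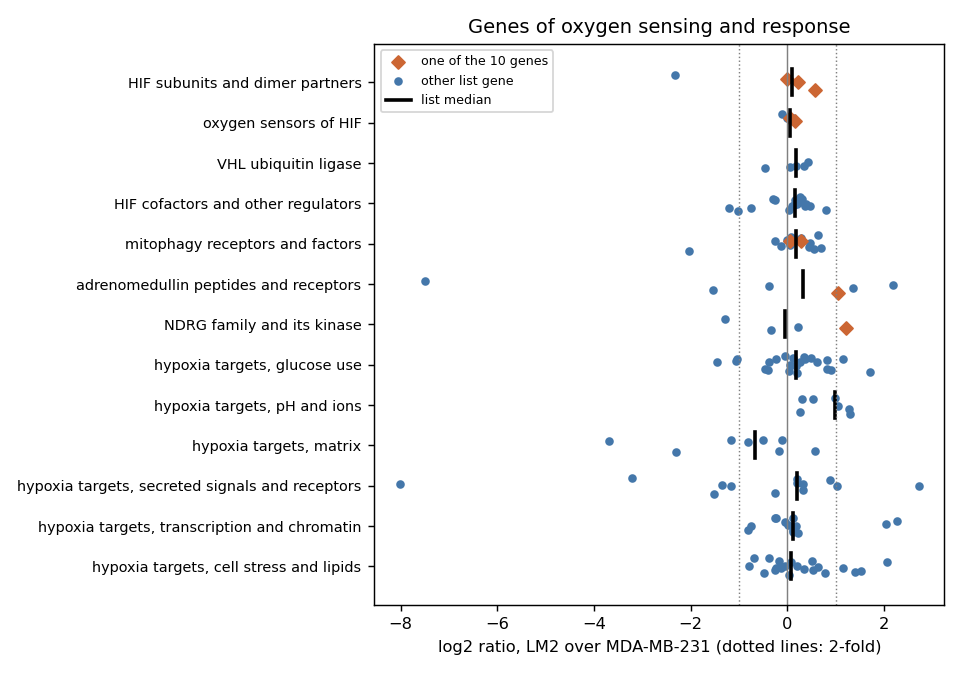
Genes of 13 lists of oxygen sensing and response (y axis), shown where they averaged at least 50 counts, by their log2 ratio of LM2 over MDA-MB-231 (x axis), 1 value per cell line. Orange diamonds are the 10 genes, blue points other list genes and black bars list medians, from 0.997 for targets in pH and ions to -0.66 for targets in the matrix.

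The ratios of the 10 genes were also set beside those of the nearest 15 measured protein-coding genes on each side. The 30 neighbours of ADM had a median log2 ratio of 0.03, and 0 of them reached the ratio of ADM. Those of NDRG1 had a median of -0.07, and 3 of 30 were above NDRG1. EPAS1, at 0.22, lay above all 30 of its neighbours, whose median was -0.28. HIF1A lay 0.50 above the median of its neighbours (0.07), with 7 of 30 higher. For ARNT, BNIP3, BNIP3L, ANKRD37 and EGLN1 the gene differed from the median of its neighbours by at most 0.135. EGLN3 lay 0.27 above the median of its neighbours, with 5 of 30 higher. BNIP3 has 29 and ANKRD37 24 such neighbours, as they lie near the end of a chromosome.

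**Figure D5:**
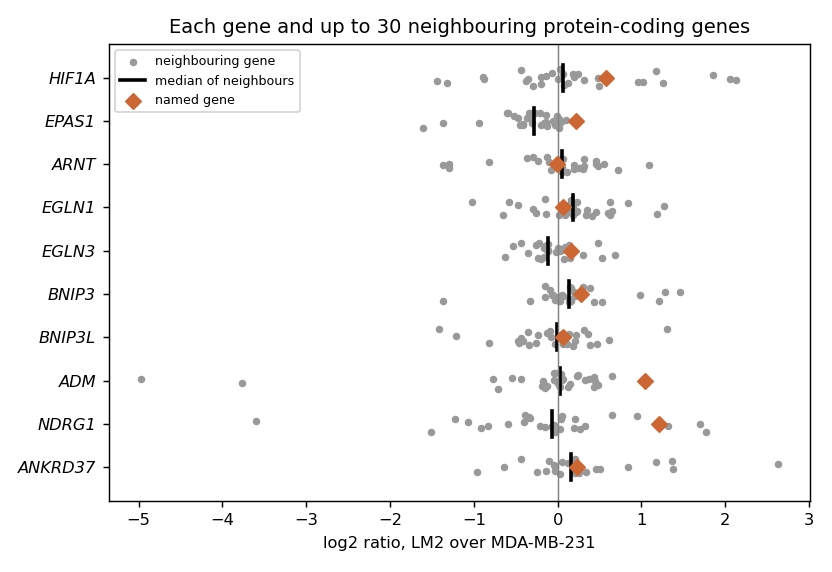
Each of the 10 genes (y axis; orange diamonds), up to 30 neighbouring protein-coding genes (grey points) and their median (black bar) by log2 ratio, LM2 over MDA-MB-231 (x axis). ADM (1.04) and NDRG1 (1.21) stand about 1 unit or more above medians of 0.03 and -0.07.

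As a check of the cell type, the mesenchymal and basal markers VIM, CD44, ANXA1, CAV1 and MSN had RPKM values of 23.0 to 550 in the parental line and 19.0 to 951 in the subline. The 7 receptor and luminal markers ESR1, PGR, ERBB2, EPCAM, CDH1, GATA3 and FOXA1 were at 0.0024 to 4.91 and at 0 to 3.22. The hormone receptor genes ESR1 and PGR had 2 and 8 and 7 and 2 counts, as known for this line without hormone receptors. ERBB2, which is not a hormone receptor, was the highest of the 7 and was clearly detected, at 2966 and 1922 counts. Of 9 markers of other cells, CD68, which tumor cells can also express, was at 23.0 and 17.8, and the other 8 were under 1 in both lines.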

How the data were processed

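Per the labels, the authors used bcl2fastq, TopHat2 2.0.13 and the build hg19. The counting tool, its annotation and its strand setting were not given in the sources used here, and neither was whether both labelled samples of a line were combined into its column. The authors deposited whole-number counts per transcript, used unchanged, and RPKM values, which equal the count scaled by length and column total to a relative difference of at most 4.98e-06.

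Symbols came from the RefSeq annotation of GRCh38.p14 and GENCODE release 29 and were found for 62331 of 65423 transcripts. No coordinates of hg19 were converted. The 10 genes and the 13 gene lists were chosen with earlier results of these data known.

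A ratio sets the scaled count of LM2 over that of MDA-MB-231, with the exact 95% interval of the binomial share. Counts past 2-fold took genes that averaged 50 counts or more. Against a count of 0 the floor was 3 counts. The replicated test planned (edgeR's quasi-likelihood test) could not be run on 1 column per line. Named are the 10 genes, overlapping and antisense genes, and at most the 3 largest ratios per list and direction, with exceptions marked. Some list genes are not reported here. The calculation was tested on simulated counts. Alternatives were TMM and upper-quartile factors (edgeR 4.0.16), DESeq2 1.42.0 size factors, totals without the 12 top transcripts, other transcripts per gene, other minimums and thresholds, and log2(RPKM + pseudocount). Software was Python 3.11.15 (pandas 2.3.3, scipy 1.17.1, numpy 2.4.6, matplotlib 3.10.9) and R 4.3.3.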

Additional observations from a re-analysis of the deposited data

How the results depend on the processing

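Over 10 alternative settings, the 10 genes gave 100 log2 ratios, of which 93 stayed within the counting interval of the reported value, 5 moved outside it and 2 changed sign against an interval that excluded 0. The settings that chose another transcript could not alter the 7 genes listed with 1 transcript. Part of the 93 was therefore fixed in advance and is no sign of stability. Among the 93, ARNT, whose interval held 0, also changed sign, from -0.0094 to 0.0047 under TMM. The sign was the same in every setting for 7 genes and not for ARNT, BNIP3L and EGLN1. Leaving the 12 top transcripts out of the totals lowered every log2 ratio by 0.067, as the share of these transcripts differs between the columns. This took BNIP3L to -0.0035 and EGLN1 to -0.0048, and left 1 gene, NDRG1, over 2-fold higher in place of 2 (ADM at 0.97). ADM ranged from 0.97 to 1.06, NDRG1 from 1.14 to 1.22 and HIF1A from 0.51 to 0.59 over these settings. TMM, upper-quartile and DESeq2 scaling moved ratios by at most 0.014. At a threshold of 1.5-fold, 26 of the 131 other measured genes in the lists were higher in place of 15 (11.5%), and 23 lower in place of 18 (13.7%). Of all named genes, 10.7% and 15.4% passed 1.5-fold, and 4.60% and 6.86% passed 2-fold. No paired analysis was possible because the table has 1 column per cell line with no replicate number, and for the same reason no replicate could be left out. Counts of 247 to 428 gave ANKRD37 and EGLN3 the widest intervals of the 10 genes, and both held 1. Spread between cultures was not measured.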
